A study of Mus musculus with 9 samples.

Results

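Cyclic AMP is made by adenylyl cyclases, degraded by phosphodiesterases and read mainly by protein kinase A (PKA), which A-kinase anchoring proteins (AKAPs) hold near its substrates. The genes of these families were compared between αTC1 cells given EPZ011989 and cells given the solvent DMSO. Members were 53 of the 33212 rows of the deposited count table, chosen by symbol. Adcy and Akap symbols had a number alone, and Pde symbols a number and a letter from a to d. Prkar1, Prkar2 and Prkac symbols ended in a or b. Akap8l and Akap17b were thus not members and are described with other anchoring proteins below. The members comprised 10 adenylyl cyclases, 23 phosphodiesterase rows, 14 AKAPs, 4 regulatory and 2 catalytic PKA subunits. Of these, 39 passed the filter on low counts and 14 did not.

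αTC1 is a glucagon-producing line derived from a mouse pancreatic alpha cell tumour, so the data describe 1 cell line and not alpha cells of an islet. EPZ011989 inhibits EZH2, the enzyme of Polycomb repressive complex 2 that methylates lysine 27 of histone H3. Poly-A RNA was sequenced after 7 days with DMSO (n = 5) or 4 µM EPZ011989 (n = 4), both in low-glucose medium with serum. The labels call the libraries biological replicates without saying that each came from its own culture. The p-values therefore reflect only how far these libraries vary, which may be technical. The series has 1 comparison, which asks how EPZ011989 alters gene expression in these cells.

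In an islet alpha cell, receptors coupled to the stimulatory G protein raise cAMP, and PKA then promotes glucagon secretion and transcription through CREB. PKA is a tetramer of 2 regulatory and 2 catalytic subunits, and cAMP binding to the regulatory subunits frees the catalytic ones. Type I regulatory subunits are largely soluble, whereas type II subunits are mostly bound to AKAPs. Phosphodiesterases differ in substrate, in activation by calcium and calmodulin or by cGMP, and in place within the cell.

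Total counts per library lay between 60274140 and 74651782. Alpha cell markers were abundant, with a summed level of 24436 to 26821 CPM in DMSO libraries and 20116 to 27348 CPM in EPZ011989 libraries, and Gcg, which encodes glucagon, was at 19280 ± 804 CPM in DMSO (SD, n = 5). CPM are counts per 1000000 on TMM-scaled library sizes, and values after ± are SDs over 5 DMSO or 4 EPZ011989 libraries unless given as SE. The glucagon receptor gene Gcgr, also on the alpha cell list, was at 0 in every DMSO library. Among the EPZ011989 libraries, replicates 2 and 4 stood apart most along gene length. In replicate 2, genes in the upper quartile of exonic length (from 6558 bp) were shifted by a median of 0.27 on the log2 scale against the other 3 EPZ011989 libraries, and genes in the lowest quartile (up to 2484 bp) by -0.17. In replicate 4 these shifts were -0.24 and 0.16, and in replicate 3 they were -0.08 and 0.03. The shifts of replicates 2 and 4 are each against a mean that includes the other. The DMSO libraries were not compared in this way, so such shifts among them are not known. Replicate 2 was the highest of the 4 EPZ011989 libraries for 24 of the 39 tested members and replicate 4 the lowest for 22.

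**Figure D1:**
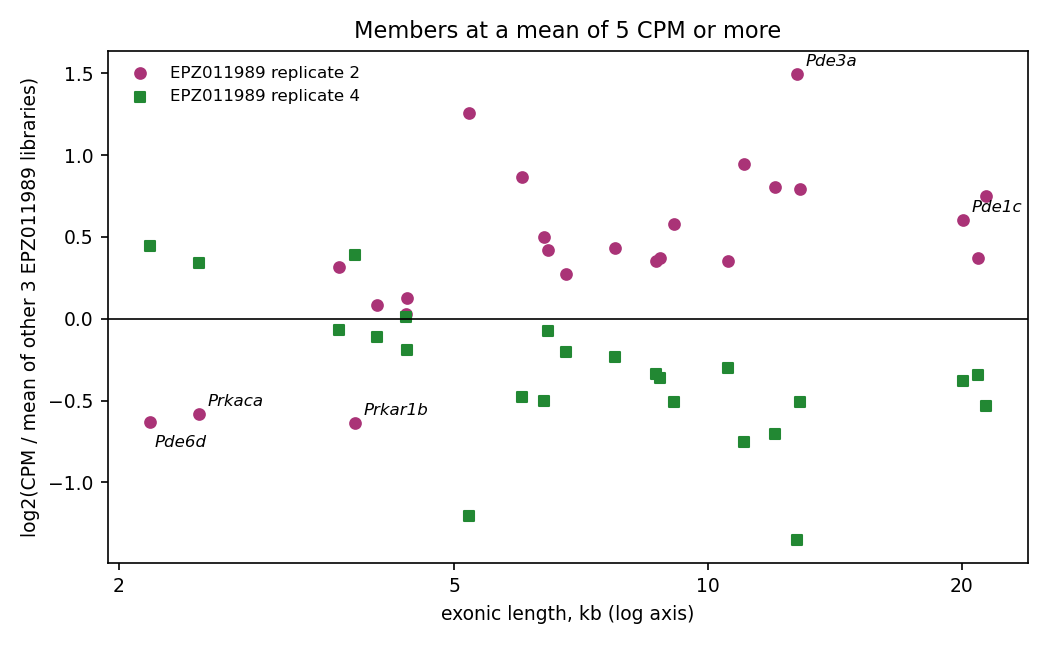
Deviation of EPZ011989 replicates 2 (circles) and 4 (squares) from the mean of the other 3 EPZ011989 libraries (y axis, log2) against exonic length in kb (x axis, log axis) for the 24 members with a mean of at least 5 CPM in EPZ011989 libraries. Most long members lie above 0 in replicate 2 and below 0 in replicate 4, while Prkaca (2488 bp) and Pde6d (2178 bp) lie below 0 in replicate 2.

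With EPZ011989, 12 of the 39 tested members rose and 0 fell, taking as called an adjusted p under 0.05 (edgeR's quasi-likelihood test). The 12 were Prkar2b and Prkar1b among PKA subunits, the cyclases Adcy2, Adcy3 and Adcy5, the anchoring gene Akap12, and the phosphodiesterases Pde1a, Pde1b, Pde2a, Pde7a, Pde7b and Pde9a. Over all 14754 genes tested, 16.2% rose and 7.96% fell. The rises were 67.0% of those calls, 77.9% with upper-quartile factors, 60.6% with DESeq2, 55.3% without EPZ011989 replicate 2 and 58.8% without replicates 2 and 4. Beside the count of 0, 2 members (Akap3 and Pde6c) were lower at an unadjusted p under 0.05, and DESeq2 called 1, Akap3. Without EPZ011989 replicate 2, 6 members were lower (Akap5, Akap8, Pde3a, Pde3b, Prkar2a and Prkacb), and without replicates 2 and 4 only Pde3b was. Without EPZ011989 replicate 1 the 1 lower member was Akap3. The median log2 fold change was 0.19 over the 39 members and 0.03 over all genes tested.

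Most members that rose were expressed at a low level. Of 18 tested members with a mean under 10 CPM over all libraries, 11 rose, where 27.1% of all genes tested at that level rose and 1.98% fell. Of 21 members at 10 CPM or more, 1 rose (Pde7a), where 9.87% of all genes rose and 11.4% fell. Adcy2, Pde1b and Pde9a passed the filter only through the EPZ011989 libraries, so they had to differ to be tested. All 4 EPZ011989 libraries lay above all 5 DMSO libraries for 11 members (16.1% of all genes tested) and below them for Akap3 alone (8.77%). In bulk RNA, a change in how many cells express a gene and a change in its RNA per cell cannot be told apart. Fibroblast markers, 8 genes, had a summed level of 7.31 to 10.01 CPM in DMSO libraries and of 30.6 to 41.8 CPM in EPZ011989 libraries, with 4 of 5 tested markers higher. Pdgfra held most of that sum, and Thy1, Col3a1, Dcn and Lum were at 0 in every DMSO library. Some markers of other cell types were also higher. Of the beta cell list, 3 of 4 tested genes were higher, Ins2 among them at 0.653 ± 0.243 and 4.85 ± 1.46 CPM, while Ins1, Pdx1 and Ucn3 were at 0 in all 9 libraries. Of the neuron list, 2 of 6 were higher, Stmn2 at 0.0225 ± 0.0308 and 5.12 ± 1.16 CPM and Rbfox3, but the summed level overlapped (508 to 532 CPM in DMSO and 464 to 525 CPM in EPZ011989 libraries). Map2, at 212 ± 18 and 155 ± 44 CPM, was not called (log2 fold change -0.46, adjusted p = 0.0571, edgeR). Snap25, Syn1 and Tubb3 were not called either, with positive log2 fold changes. Of the leukocyte list, 1 of 3 was higher, Lyz2, at 0.289 ± 0.249 and 3.76 ± 0.76 CPM, with a summed level of 4.58 to 7.07 CPM and of 6.92 to 9.77 CPM. Cd14, at 4.82 ± 0.69 and 3.58 ± 0.52 CPM, and Cd68 had negative log2 fold changes and were not called (adjusted p = 0.0728 and 0.807, edgeR). Of the endothelial list, 1 of 2 was higher, Kdr, which was at 0 in every DMSO library, and of the delta and PP cell list 1 of 2, Sst, likewise at 0. Rbp4, also on the delta and PP cell list, was at 1559 ± 164 and 1290 ± 262 CPM and was not called. Of the acinar and ductal list, Sox9 was higher and Cela1 lower. Of these higher markers, Col1a1, Pdgfrb, Thy1, Iapp, Stmn2, Rbfox3, Lyz2, Kdr and Sst passed the low-count filter only because of EPZ011989 libraries. Thy1, Stmn2, Kdr and Sst, with 0 DMSO libraries at the cutoff, had to be higher to be called. For the others, with 1 to 3 such libraries, the filter favoured a rise without fixing it. The part of any of these markers in the rises was not tested.

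**Figure D2:**
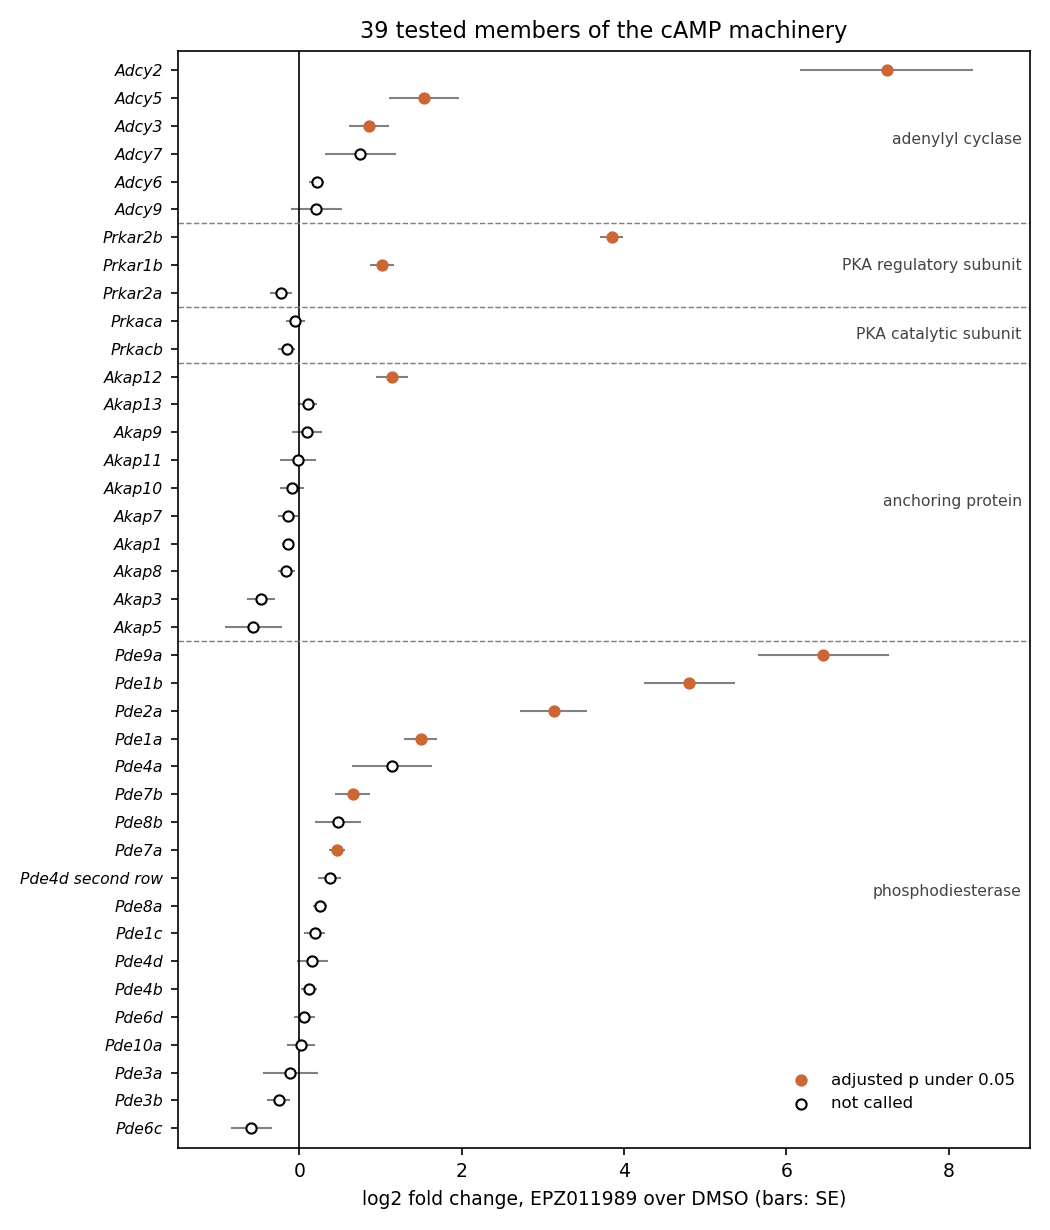
Log2 fold change of EPZ011989 over DMSO (x axis, bars show the SE) for the 39 tested members, in 5 classes separated by dashed lines. Filled points mark the 12 members with an adjusted p under 0.05, which all lie to the right of 0; the fitted value of Adcy2 is no bound, since its DMSO libraries were at 0.

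Promoter sequences were set beside the results for a pair of PKA paralogs and for the phosphodiesterases Pde1b and Pde2a, since Prkar2b, Pde1b and Pde2a rose and Prkar2a was not called. Each is the 250 bases before a RefSeq transcript start (GRCm38.p6), 5′ to 3′, with every CpG dinucleotide in capitals.
Prkar2b, chr12:32061278-32061527, minus strand: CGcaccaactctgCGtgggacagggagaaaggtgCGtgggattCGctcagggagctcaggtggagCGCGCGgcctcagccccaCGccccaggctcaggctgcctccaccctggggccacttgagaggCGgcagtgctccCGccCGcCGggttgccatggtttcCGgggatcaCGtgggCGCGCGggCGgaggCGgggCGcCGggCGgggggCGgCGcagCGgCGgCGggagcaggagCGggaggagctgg
Prkar2a, chr9:108691893-108692142, plus strand: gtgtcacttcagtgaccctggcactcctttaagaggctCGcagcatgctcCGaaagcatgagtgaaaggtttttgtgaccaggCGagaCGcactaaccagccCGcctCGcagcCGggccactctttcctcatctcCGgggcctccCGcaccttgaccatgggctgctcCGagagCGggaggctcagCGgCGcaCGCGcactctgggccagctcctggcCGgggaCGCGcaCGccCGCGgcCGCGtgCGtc
Pde1b, chr15:103502784-103503033, plus strand: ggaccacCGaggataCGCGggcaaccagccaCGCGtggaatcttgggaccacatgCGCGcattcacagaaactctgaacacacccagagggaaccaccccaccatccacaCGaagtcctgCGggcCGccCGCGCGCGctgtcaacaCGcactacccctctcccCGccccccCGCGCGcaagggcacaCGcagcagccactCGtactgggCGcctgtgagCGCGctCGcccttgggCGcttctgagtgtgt
Pde2a, chr7:101421441-101421690, plus strand: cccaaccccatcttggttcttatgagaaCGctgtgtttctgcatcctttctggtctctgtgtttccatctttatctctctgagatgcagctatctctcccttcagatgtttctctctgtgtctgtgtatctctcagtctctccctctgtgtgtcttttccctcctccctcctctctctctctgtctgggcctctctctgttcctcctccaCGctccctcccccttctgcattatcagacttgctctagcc

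These windows held 28 CpG sites in Prkar2b, 24 in Prkar2a, 26 in Pde1b and 2 in Pde2a, so genes that rose had both dense and sparse promoters. Of the 53 member rows, 42 matched a promoter in the RefSeq table. The median was 23 CpG sites over the 9 matched members that rose and 21.5 over the 22 that were tested and not called. Over all tested genes with a promoter in that table, the median was 14 sites for those that rose, 16 for those not called and 16 for those that fell. The 11 matched members that were not tested had a median of 4 sites, and all promoters in the table, of tested genes or not, one of 10. The full cAMP response element TGACGTCA, which reads the same on both strands, was in none of the 42 member windows and in 2.07% of all windows of this length. The RefSeq start of Prkar2a lies 2829 bp from its GENCODE gene start, and the Pde2a window lies within the listed span of that gene, so these windows need not be the ones in use in αTC1 cells. The same holds for some windows in the member medians that lie farther from the gene start. Among them are Pde7b (176750 bp), which rose, and Pde4b (334012 bp) and Pde10a (276373 bp), which were not called.

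Among PKA subunits, only regulatory ones were called. Prkar2b, which encodes RIIβ, a type II subunit typical of brain and fat, was at 0.974, 0.751, 0.900, 0.709 and 0.929 CPM in the 5 DMSO libraries. In the 4 EPZ011989 libraries it was at 11.1, 14.5, 11.8 and 11.9 CPM, each more than any DMSO library by a wide margin. The mean went from 0.853 ± 0.116 to 12.3 ± 1.5 CPM, a log2 fold change of 3.85 ± 0.14 (SE, adjusted p = 1.06e-07, edgeR). Over 19 other settings its log2 fold change ranged from 3.74 to 3.90, and it was called in every one. The gene lies on chromosome 12 from 31958476 to 32061296 (GRCm38).

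Prkar1b, encoding the neuronal type I subunit RIβ, was at 5.09, 6.28, 6.04, 6.30 and 5.94 CPM in DMSO and at 12.8, 8.49, 12.3 and 14.6 CPM with EPZ011989. The lowest EPZ011989 value was that of replicate 2, and the groups did not overlap. Its log2 fold change was 1.02 ± 0.15 (SE, adjusted p = 5.36e-04, edgeR), and 1.15 without replicate 2. It lies on chromosome 5 from 139017306 to 139150001, and its exons overlap those of Gm15672. Whether reads were counted by strand is not known here, so reads of overlapping genes such as these cannot be told apart.

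Prkar2a, encoding RIIα, was the most abundant regulatory subunit in both groups. It was at 126, 107, 123, 125 and 101 CPM in DMSO and at 97.2, 127, 97.5 and 75.9 CPM with EPZ011989. The groups overlapped and the difference was not called (edgeR log2 fold change -0.22, SE 0.13, adjusted p = 0.268), but it was -0.37 without replicate 2 (adjusted p = 0.0163, with up to 0.452 elsewhere, edgeR). The log2 ratio of Prkar2b to Prkar2a rose by 3.95 between groups, and that of Prkar1b to Prkar2a by 1.23 (exact two-sided permutation test over libraries, p = 0.0159 for each, the smallest that 5 against 4 libraries allow, and 0.0222 after Benjamini-Hochberg adjustment over 7 paralog pairs). All 4 EPZ011989 libraries lay above all DMSO libraries in both ratios. The pairs were chosen after the values were seen.

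Prkar1a, encoding RIα, which is found in nearly all cell types and restrains PKA, was close to absent from the table. Its counts were 0, 4, 0, 0 and 3 in DMSO and 4, 0, 4 and 0 with EPZ011989, below the floor of 12 counts per library (3 fragments, taken as 4 counts each, or 0.158 to 0.203 CPM). It was therefore not tested. Prkar1a lies on chromosome 11 from 109649405 to 109669656, and its neighbours in the table were as empty. A run of 20 protein-coding genes around it, from Axin2 to Kcnj2 (108920349 to 111076821, 2.16 Mb), held 23 counts in all over the 9 libraries. The run was extended on each side up to the nearest gene with at least 12 counts in a library. Counts under 12 within it and detected flanks therefore follow from that rule, and how often such runs occur elsewhere was not counted. Of the 20 genes, 17 had a count of 0 in every library, among them Amz2, Wipi1 and Abca5, and no gene had more than 4 counts in a library. Gna13, which encodes a widely expressed G protein subunit, had 4 counts in total. The flanking genes were detected, Cep112 with 803 counts and Sox9 with 10219. DNA of this region was not measured, and the cause was not tested.

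**Figure D3:**
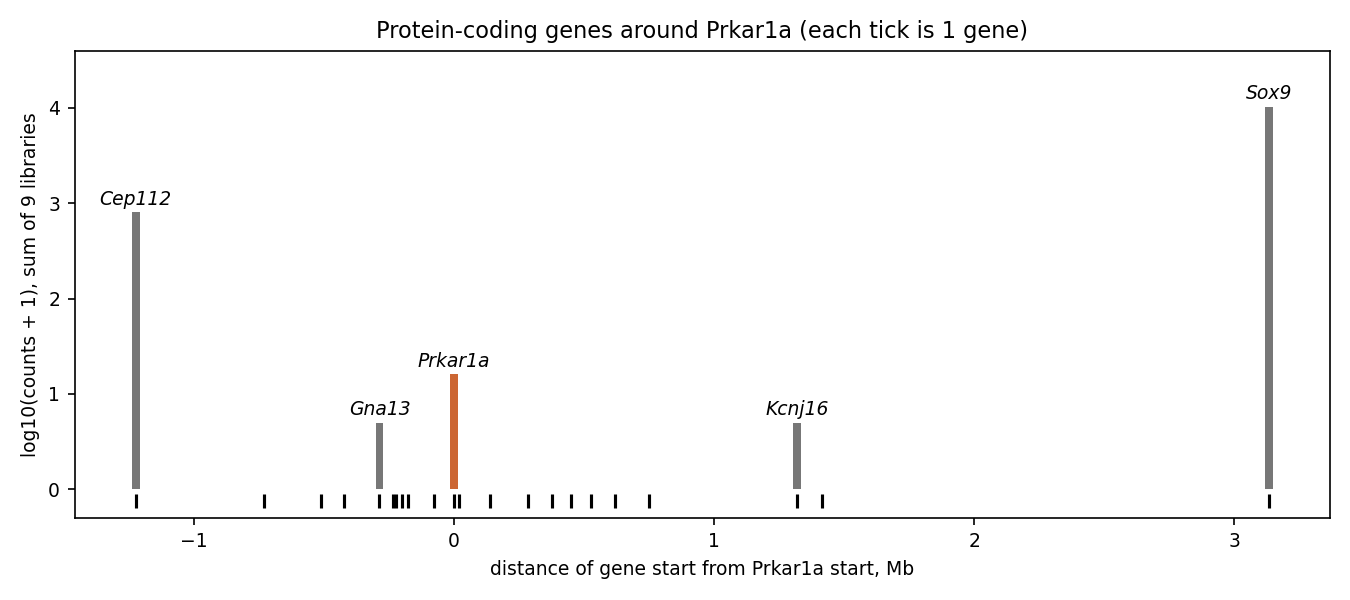
Counts of protein-coding genes around Prkar1a, summed over 9 libraries (y axis, log10 of counts + 1), by distance of the gene start from that of Prkar1a in Mb (x axis; each tick is 1 gene). The 20 genes between Cep112 and Sox9 hold 23 counts in all, of which Prkar1a has 15.

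Catalytic subunits were not called. Prkaca, encoding Cα, was at 205, 219, 205, 228 and 219 CPM in DMSO and at 217, 151, 216 and 247 CPM with EPZ011989 (edgeR log2 fold change -0.05, SE 0.12, adjusted p = 0.815). The value of 151 was that of replicate 2, and the other 3 EPZ011989 libraries lay within or above the DMSO range. Its paralog Prkacb, encoding Cβ, averaged 107 ± 7 and 95.7 ± 15.3 CPM in the DMSO and EPZ011989 libraries (adjusted p = 0.322, edgeR; 0.0238 as lower without replicate 2).

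Per kb of exon, Prkaca was the most abundant PKA transcript at 86.5 ± 4.1 CPM per kb in DMSO, before Prkar2a at 18.2 ± 1.8, Prkacb at 12.2 ± 0.8 and Prkar1b at 1.56 ± 0.13. These DMSO ranges did not overlap. With EPZ011989, Prkar2b (3.38 ± 0.40 CPM per kb) and Prkar1b (3.16 ± 0.68) overlapped each other. Exonic length is the union of annotated exons, so a level is understated where cells use a short isoform. On this scale Prkar2a made up 89.7% to 92.5% of regulatory subunit transcripts in the DMSO libraries and 62.6% to 76.3% in the EPZ011989 libraries. These shares, the sums and the ratio below take Prkar1a at its count near 0, whose cause was not tested, and would differ if it was missed. Prkar2b went from 0.908% to 1.44% up to 14.1% to 17.2%, with no overlap. The summed level of regulatory subunits was 20.03 ± 1.73 CPM per kb in DMSO and 22.1 ± 3.0 with EPZ011989, and the ranges overlapped. The ratio of regulatory to catalytic transcripts was 0.179 to 0.225 in DMSO. With EPZ011989 it was 0.220, 0.354, 0.224 and 0.176, so replicate 2 lay above the DMSO range and replicate 4 just below it. Sums over members were described without a test.

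**Figure D4:**
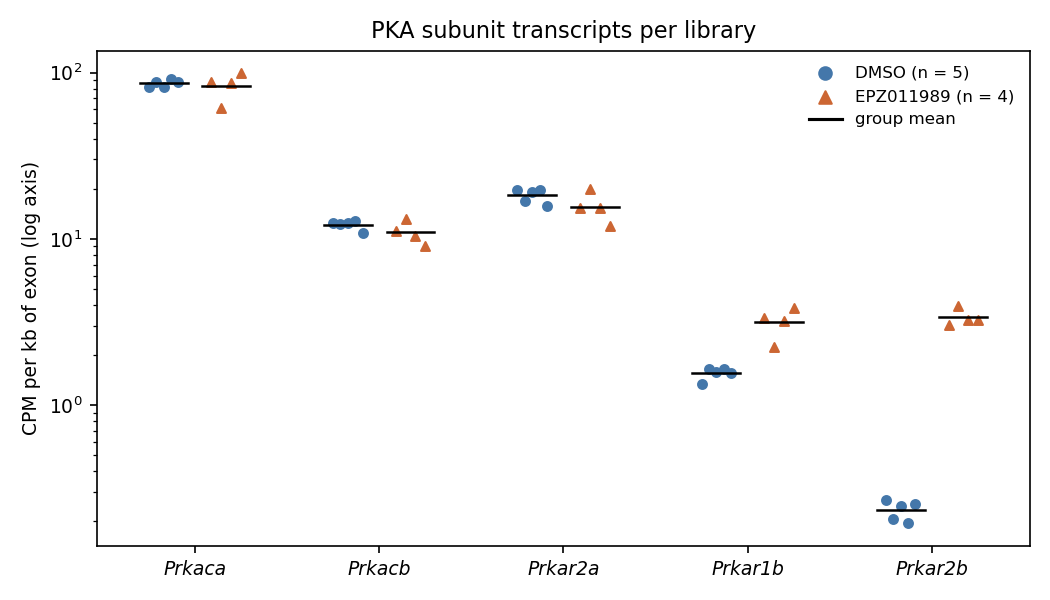
PKA subunit transcripts in CPM per kb of exon (y axis, log axis) in 5 DMSO libraries (circles) and 4 EPZ011989 libraries (triangles), with horizontal bars at the group means. Prkar2b moves from a mean of 0.233 to 3.38 CPM per kb and Prkar1b from 1.56 to 3.16, while both groups overlap for Prkaca, Prkacb and Prkar2a; Prkar1a, at or near 0, is not drawn.

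Adenylyl cyclase transcripts were mostly those of Adcy6, a cyclase inhibited by calcium. It held 86.9% to 92.9% of the summed cyclase level per kb over all 9 libraries. Adcy6 was at 90.1, 80.9, 84.3, 85.4 and 75 CPM in DMSO and at 101, 111, 87.3 and 86.4 CPM with EPZ011989. The 2 lowest EPZ011989 libraries fell within the DMSO range, and the difference was not called (edgeR log2 fold change 0.21, SE 0.09, adjusted p = 0.115), although it passed with upper-quartile factors (adjusted p = 0.0406).

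Adcy3, a cyclase of olfactory neurons and primary cilia, was at 1.48, 0.678, 1.15, 1.22 and 0.786 CPM in DMSO and at 1.74, 1.94, 2.07 and 1.96 CPM with EPZ011989. The groups did not overlap, and the log2 fold change was 0.86 ± 0.25 (SE, adjusted p = 0.0272, edgeR). The call was lost when any 1 of DMSO replicates 2, 3 and 5 or EPZ011989 replicates 1, 3 and 4 was left out (adjusted p up to 0.0717). Its exons overlap those of Cenpo. Adcy5, another calcium-inhibited cyclase, went from 0.242 ± 0.077 to 0.705 ± 0.303 CPM with no overlap (adjusted p = 0.0250, edgeR). That call too was lost without DMSO replicate 3, 4 or 5 or EPZ011989 replicate 1 or 3 (adjusted p up to 0.102).

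Adcy2, a cyclase stimulated by G protein beta-gamma subunits, had 0 counts in every DMSO library and 15, 11, 31 and 21 counts in the EPZ011989 libraries. These are a few fragments each, and against the floor of 12 counts per DMSO library the rise was at least 1.503-fold (adjusted p = 0.00285, edgeR). Adcy9, at 4.70 ± 1.05 and 5.44 ± 2.95 CPM, and Adcy7, at 0.504 ± 0.277 and 0.848 ± 0.258 CPM, were not called. Adcy1, Adcy4 and Adcy10 had 63, 6 and 36 counts over the 9 libraries and were not tested, and Adcy8, a calcium-stimulated cyclase, had 0. The log2 ratio of Adcy3 to Adcy6 rose by 0.64 (exact two-sided permutation test, p = 0.0159, adjusted 0.0222, 4 of 4 EPZ011989 libraries above DMSO) and that of Adcy5 to Adcy6 by 0.97 (exact p = 0.0317, adjusted 0.0370, 3 of 4 libraries). For Adcy5 this test no longer passed with a pseudocount of 1 CPM in place of 0.1 (exact p = 0.111), nor without any 1 of the libraries other than DMSO replicate 2 and EPZ011989 replicate 4 (exact p up to 0.0714).

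Phosphodiesterase calls divided by abundance. The abundant enzymes of αTC1 cells were not called, with 1 exception, while 5 enzymes under 10 CPM rose. Pde4a, Pde6c and Pde8b, also under 10 CPM, were not called. Of the 5, Pde1b and Pde9a passed the filter only through the EPZ011989 libraries. All genes tested were divided likewise (27.1% rose under 10 CPM and 9.87% at 10 CPM or more), so the pattern is not particular to phosphodiesterases. Per kb of exon, Pde3b was the highest enzyme in DMSO at 29.8 ± 3.2 CPM per kb, followed by Pde1c (20.3 ± 1.5), Pde8a (17.3 ± 1.8), Pde10a (11.1 ± 1.3) and Pde4b (10.3 ± 0.9). Ranges overlapped between Pde1c and Pde8a and between Pde10a and Pde4b. Pde3b, the cGMP-inhibited enzyme of islets and fat, was at 313, 246, 287, 267 and 243 CPM in DMSO and at 220, 302, 214 and 173 CPM with EPZ011989. All but replicate 2 lay below every DMSO library. The difference was not called (edgeR log2 fold change -0.26, SE 0.14, adjusted p = 0.242), but was -0.43 without replicate 2 (adjusted p = 0.00793, with up to 0.407 elsewhere, edgeR) and -0.32 without replicates 2 and 4 (adjusted p = 0.0271). As a share of phosphodiesterase transcripts per kb, Pde3b was 27.5% to 29.1% in the DMSO libraries and 21.02% to 23.24% in the EPZ011989 libraries, with replicate 2 at 23.05%.

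The PDE1 family, activated by calcium and calmodulin, held the phosphodiesterase with the most CPM and 2 that rose. Pde1c, which averaged 407 ± 30 and 463 ± 109 CPM, was not called (adjusted p = 0.356, edgeR). Pde1a was at 2.33, 2.28, 2.73, 2.48 and 3.00 CPM in DMSO and at 5.83, 10.9, 6.59 and 5.59 CPM with EPZ011989. Every EPZ011989 library lay above every DMSO library, replicate 2 highest (edgeR log2 fold change 1.5, SE 0.20, adjusted p = 3.53e-04).

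Pde1b, an enzyme of striatal neurons and of activated macrophages, was at 0.108, 0, 0.0554, 0.0675 and 0.129 CPM in DMSO and at 2.51, 2.34, 1.07 and 2.39 CPM with EPZ011989. DMSO libraries were all below the floor, with 6 fragments in all, if each gives 4 counts, against 152 in EPZ011989, a ratio of 29.6 (95% interval 13.3 to 82.0, exact, counting error only). Its adjusted p was 1.25e-04 (edgeR). Pde1b lies on chromosome 15 from 103503034 to 103530052. The log2 ratio to Pde1c rose by 1.25 for Pde1a and by 3.48 for Pde1b (exact two-sided permutation test, p = 0.0159 and adjusted 0.0222 for each, 4 of 4 EPZ011989 libraries above DMSO). Pde1b passed the filter on low counts only through the EPZ011989 libraries, so this test is no support for its rise. Its DMSO values lie near the 0.1 CPM added before taking logs, so the value of 3.48 depends on that constant.

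Pde2a, which hydrolyses cAMP faster once cGMP binds it, was at 0.298, 0.192, 0.111, 0.591 and 0.257 CPM in DMSO and at 2.48, 2.07, 2.06 and 3.51 CPM with EPZ011989. The groups were well apart (edgeR log2 fold change 3.13, SE 0.41, adjusted p = 2.71e-04). Pde2a lies on chromosome 7 from 101410886 to 101512819, and its exons overlap those of Arap1 and of a second gene model named Pde2a. Pde9a, a cGMP-specific enzyme, was at 0.0677 CPM in DMSO replicate 1 and 0 in the other 4 DMSO libraries. With EPZ011989 it was at 1.19, 1.14, 1.28 and 2.04 CPM. If a fragment gives 4 counts this is 1 against 103, a ratio of 120.4 with a 95% interval of 21.1 to 4801 (exact, counting error only), and the adjusted p was 1.95e-04 (edgeR). The gene lies on chromosome 17 from 31386210 to 31476310, and exons of 2 unnamed gene models overlap it.

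Of the cAMP-specific enzymes, both PDE7 genes rose. Pde7a, a high-affinity enzyme first known from T cells, was at 43.6, 38.5, 41.9, 40.5 and 40.9 CPM in DMSO and at 52.6, 70.4, 53.9 and 50.1 CPM with EPZ011989. It was the only member at 10 CPM or more that was called, and its groups did not overlap (edgeR log2 fold change 0.47, SE 0.10, adjusted p = 0.00585). Pde7b was at 2.76, 2.37, 2.63, 2.46 and 1.56 CPM in DMSO and at 4.12, 4.71, 3.42 and 2.61 CPM with EPZ011989. Its groups overlapped at EPZ011989 replicate 4. Its log2 fold change of 0.66 ± 0.21 (SE, adjusted p = 0.0466, edgeR) was called in 7 of 19 other settings, and leaving out any 1 library other than EPZ011989 replicate 4 lost the call (adjusted p up to 0.135). The ratio of Pde7b to Pde7a differed by 0.18 on the log2 scale (exact two-sided permutation test, p = 0.349).

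PDE4 enzymes, the main cAMP-specific family of immune and brain cells, were not called. Pde4b averaged 109 ± 10 CPM and 118 ± 17 CPM in the DMSO and EPZ011989 libraries, and Pde4a averaged 0.405 ± 0.221 and 0.893 ± 0.319 CPM (adjusted p = 0.124, edgeR). The symbol Pde4d stood on 2 rows. The row with identifier ENSMUSG00000021699, the gene on chromosome 13 in GENCODE M21, was at 41.1 ± 4.6 and 45.9 ± 15.8 CPM. The row ENSMUSG00000074661, an identifier absent from that annotation, was at 23.7 ± 2.2 and 30.6 ± 6.6 CPM (adjusted p = 0.0833, edgeR). These rows moved apart in EPZ011989 replicate 2, where the first was highest of the 4 libraries (67.5 CPM) and the second lowest (21 CPM). Without that replicate the second row passed (log2 fold change 0.51, adjusted p = 9.03e-04, edgeR). What it measures is uncertain.

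Pde8a, whose enzyme has a high affinity for cAMP, was at 69.9 ± 7.5 and 83.1 ± 4.2 CPM with an adjusted p of 0.0549 (edgeR). It passed under 5 of 19 other settings. Pde8b, Pde10a and Pde3a were not called. Pde3a was at 122 CPM in EPZ011989 replicate 2 and at 29.1 to 55.0 CPM in the other 3, against 49.3 to 86.0 CPM in DMSO, and it was lower without replicate 2 (log2 fold change -0.66, adjusted p = 0.0310, with up to 0.989 elsewhere, edgeR). The cone enzyme gene Pde6c was at 1.32 ± 0.28 and 0.875 ± 0.162 CPM (adjusted p = 0.125, edgeR). Pde6d, which encodes a prenyl-binding protein and not an enzyme, was at 103 ± 6 and 107 ± 24 CPM. Pde4c, Pde5a and Pde6b had 24 to 42 counts in all over 9 libraries and were not tested, and Pde6a and Pde11a had 0.

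Cyclic AMP-specific enzymes made up 34.8% to 36.1% of phosphodiesterase transcripts per kb in the DMSO libraries, leaving out Pde6d and the second Pde4d row. With EPZ011989 they made up 40.8%, 34.9%, 40.9% and 42.6%, so replicate 2 fell in the DMSO range and the other 3 above it. Enzymes that rose from low levels stayed a small part of the total. Pde1a was 1.07% ± 0.15 of phosphodiesterase transcripts with EPZ011989, Pde2a 0.585% ± 0.253 and Pde1b 0.355% ± 0.133, against 20.8% ± 0.6 for Pde1c. The summed level was 104 ± 10 CPM per kb in DMSO and 111 ± 23 with EPZ011989.

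**Figure D5:**
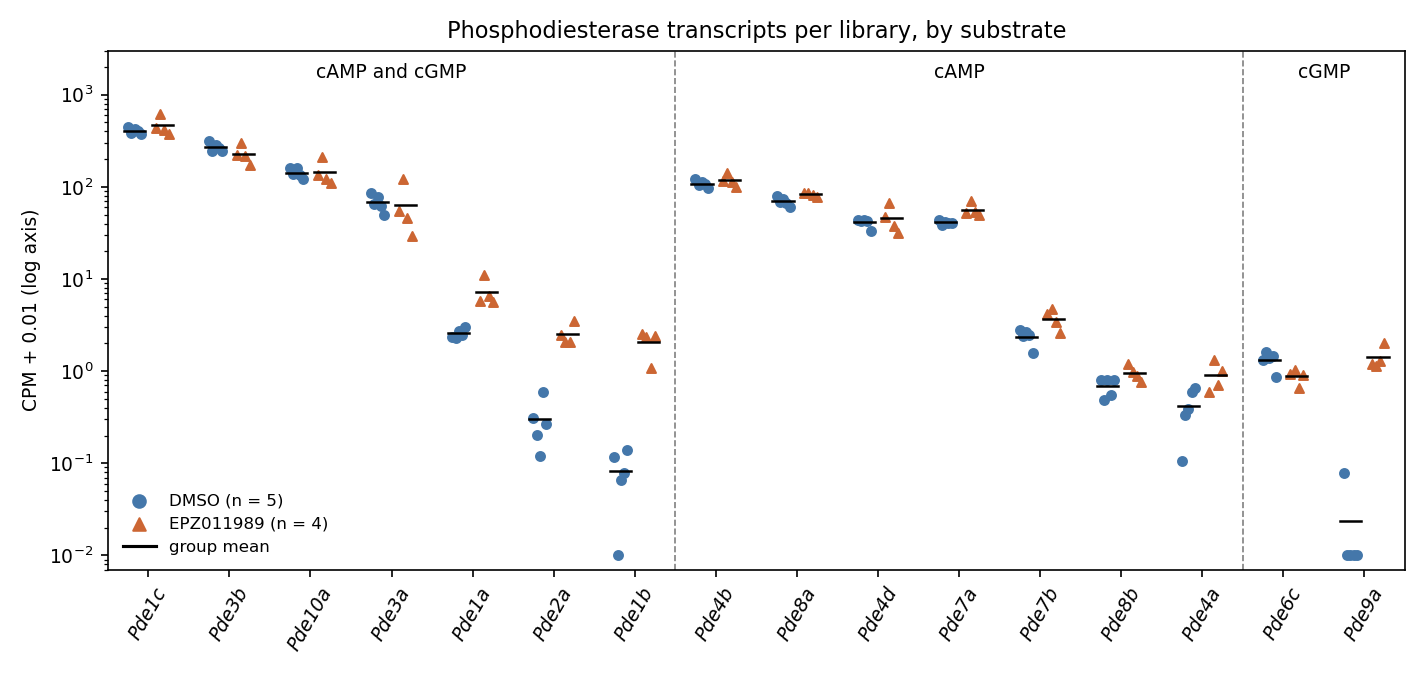
Phosphodiesterase transcripts in CPM + 0.01 (y axis, log axis) in 5 DMSO libraries (circles) and 4 EPZ011989 libraries (triangles), grouped by substrate, with bars at the group means; the second Pde4d row and Pde6d are not drawn. Pde1a, Pde2a, Pde1b and Pde9a move up without overlap, while the abundant Pde1c, Pde3b, Pde10a and Pde4b overlap between groups.

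Anchoring proteins were mostly not called, with 1 of 10 tested members higher. Akap12 (gravin), a scaffold for PKA and protein kinase C at the plasma membrane, was at 0.907, 0.899, 1.08, 0.962 and 1.31 CPM in DMSO. With EPZ011989 it was at 2.49, 2.22, 1.82 and 2.55 CPM, above every DMSO library (edgeR log2 fold change 1.14, SE 0.20, adjusted p = 0.00171). It was called under all 19 other settings, at log2 fold changes of 1.06 to 1.23.

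Among the AKAP members alone, Akap1, the mitochondrial anchor, was the most abundant per kb in DMSO at 20.2 ± 1.3 CPM per kb. It was at 96.4, 88.2, 90.5, 88.0 and 81.1 CPM in DMSO and at 83.0, 85.7, 80.1 and 72.6 CPM with EPZ011989, and the groups overlapped (adjusted p = 0.188, edgeR). Akap3, a sperm anchoring protein gene, was at 2.33 to 2.86 CPM in DMSO and at 1.52 to 2.28 CPM with EPZ011989. Its groups did not overlap, but the log2 fold change of -0.48 ± 0.17 (SE) did not pass (adjusted p = 0.0666, edgeR), except with DESeq2 (adjusted p = 0.0315) or without EPZ011989 replicate 1 (0.0350).

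Akap5, which anchors PKA and calcineurin near membrane channels, was at 4.49, 3.29, 4.22, 3.28 and 2.59 CPM in DMSO. With EPZ011989 it was at 2.89, 4.21, 1.29 and 1.26 CPM, so replicate 2 lay among the DMSO libraries and replicates 3 and 4 below them. The log2 fold change of -0.57 ± 0.35 (SE) was not called (adjusted p = 0.291, edgeR), but was -0.99 without replicate 2 (adjusted p = 0.0265, with up to 0.550 elsewhere, edgeR). The nuclear AKAP gene Akap8, at 142 ± 13 and 127 ± 19 CPM, passed as lower only without replicate 2 (log2 fold change -0.27, adjusted p = 0.0343, with up to 0.549 elsewhere, edgeR). The centrosomal Akap9, at 73.6 ± 11.9 and 78.5 ± 23.8 CPM, and Akap7, Akap10, Akap11 and Akap13 were not called under any setting. Akap2, Akap4, Akap6 and Akap14 were not tested, with 4 to 97 counts in all. Exons of Akap2 overlap those of Pakap.

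Other genes of the pathway were described from lists, whose counts stand beside the shares of 16.2% higher and 7.96% lower over all genes tested, and of 27.1% higher under 10 CPM. Of the genes counted as higher in these lists, Adcyap1r1, Pkib, Ppp1r1b, Sst and Cngb1 had 0 DMSO libraries at the cutoff of the low-count filter. They passed it only through the EPZ011989 libraries and had to be higher to be called. Npr2, Rab32 and Vipr1, with 1, 1 and 3 such DMSO libraries, also needed EPZ011989 libraries to pass, which favoured a rise. Among 15 tested G proteins, their receptors and regulators, 7 rose and 1, the adenosine receptor gene Adora2a, fell (median log2 fold change 0.49). Vipr2, a receptor for the peptides VIP and PACAP, rose from 0.247 ± 0.168 to 1.77 ± 0.38 CPM, and the PACAP receptor gene Adcyap1r1 from 0.0389 ± 0.0360 to 0.502 ± 0.271 CPM, from below the floor. Rgs2, a regulator of G protein signalling, rose from 17.6 ± 1.5 to 29.5 ± 2.2 CPM (edgeR log2 fold change 0.74, SE 0.09, adjusted p = 1.25e-04). It is also counted among the CREB target genes below. Gnas, the gene of the stimulatory G protein, was at 5214 ± 197 and 6407 ± 896 CPM. Its groups overlapped, and it was called only narrowly (adjusted p = 0.0493, edgeR). Glp1r, like Gcgr, was at 0 in every DMSO library and not tested.

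Of 4 PKA inhibitors and PKA-like kinases 2 rose and 0 fell. Pkib, a heat-stable inhibitor that binds the catalytic subunit, went from 0.0135 ± 0.0303 CPM, below the floor, to 1.02 ± 0.53 CPM (adjusted p = 9.71e-04, edgeR). Its relative Pkia rose from 27.7 ± 1.2 to 41.8 ± 13 CPM (adjusted p = 0.0198, edgeR), a call lost without DMSO replicate 2 (0.0502). Of 7 cAMP effectors outside PKA 2 rose. Rapgef3 (EPAC1), an exchange factor for the GTPase Rap that cAMP activates, rose from 0.465 ± 0.205 to 1.76 ± 0.70 CPM (adjusted p = 0.00381, edgeR). Rapgef4 (EPAC2), the form of islet cells, was at 103 ± 8 and 92.0 ± 12.6 CPM and was not called (adjusted p = 0.264, edgeR; 0.0466 as lower without replicate 2).

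Of 13 tested genes on a list of CREB family members, coactivators and other regulators, 1 rose and 0 fell (median log2 fold change -0.05). The gene that rose, Ppp1r1b, was one of the other regulators, and no CREB family member or coactivator was called. Of 19 CREB target genes 5 rose and 1 fell (median 0.16). Vgf, a granule protein gene, rose from 85.0 ± 6.5 to 215 ± 46 CPM and Scg2, another, fell from 3403 ± 127 to 2404 ± 100 CPM. Of 4 tested genes of cGMP synthesis and cGMP-dependent kinases 3 rose (median 1.23), among them the natriuretic peptide receptor gene Npr1, from 1.09 ± 0.22 to 3.06 ± 0.15 CPM. That list had 12 genes, of which 10 were found by symbol. Gucy1a1 and Gucy1b1 were not found and were therefore not assessed. Of 20 tested anchoring proteins outside the members, Akap8l and Akap17b among them, 4 rose and 0 fell (median 0.01). Akap17b rose from 11.5 ± 0.9 to 16.9 ± 4.2 CPM (adjusted p = 0.0228, edgeR), and Akap8l was not called. Ezr, which encodes the membrane linker ezrin, rose from 14.2 ± 1.0 to 55.0 ± 5.9 CPM (edgeR log2 fold change 1.95, SE 0.09, adjusted p = 4.21e-07). Sphkap had the highest CPM of this list, at 524 ± 65 in DMSO and 410 ± 94 with EPZ011989, and was not called (adjusted p = 0.111, edgeR).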

How the data were processed

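The authors deposited whole-number gene counts for 9 libraries. HISAT2, StringTie, DESeq2 and the build mm10 appear, with no roles, per the submitters' processing notes. Strand use and filters were not given in the sources used here. Counts of 4 (3046 values) and 5 (2732) were more frequent than 2 (2108) or 3 (2160), but a count of 1 was the most frequent (3970). About 4 counts per fragment is therefore an assumption, on which the floor of 12 counts and the Pde1b and Pde9a fragment ratios rest. The authors' second, normalized table was not used.

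Groups follow the labels. Genes passing filterByExpr (about 10 counts, 0.139 CPM, in 4 libraries) were tested with the quasi-likelihood test of edgeR 4.0.16 (TMM factors, robust, treatment only), with Benjamini-Hochberg adjustment over 14754 genes and calls under 0.05. Each SE is the log2 fold change divided by the root of its F statistic. Positions and exonic lengths come from GENCODE M21 (GRCm38, the assembly of mm10). Exons of 11 of 39 tested members overlap another gene. Paralog ratios used log2(CPM + 0.1).

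Values in every library are given for called members reaching 1 CPM and the most abundant member of each class. At most 4 called genes per pathway list are given with their levels. Members and lists were chosen with earlier results of these data known. Alternatives were other factors, filters, DESeq2 1.42.0, limma-voom (limma 3.58.1), counts divided by 4, a replicate block and leaving out each library. Leaving out EPZ011989 replicates 2 and 4 together was chosen after seeing the data. Floors and intervals cover counting error only.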

Additional observations from a re-analysis of the deposited data

Results flagged for a closer look

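Of 78 checks for a library far from the rest of its group, over 39 members and both groups, 4 were positive, and chance alone gives about 1 in 20. Pde1b was at 1.07 CPM in EPZ011989 replicate 3 and at 2.34 to 2.51 CPM in the other 3. The first Pde4d row was at 33.1 CPM in DMSO replicate 5 and at 42.4 to 44.0 CPM in the other 4. Pde9a was at 0.0677 CPM in DMSO replicate 1, where the others were at 0, a gap that any single count among zeros gives and that says nothing of this library. It was also at 2.04 CPM in EPZ011989 replicate 4 against 1.14 to 1.28 CPM. Leaving out any 1 of these libraries kept the calls of Pde1b and Pde9a and left Pde4d uncalled.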

How the results depend on the processing

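Prkar2b, Prkar1b, Akap12, Pde1a, Pde1b, Pde2a and Pde9a were called under all 19 other settings, and Pde7a under 18. Genes higher numbered 2388, and 1861 to 2939 when each library in turn was left out. Genes lower numbered 1174, with 776 under upper-quartile factors and 781 to 2377 leaving out 1 library (2377 without EPZ011989 replicate 2, 781 without replicate 3). Members higher ranged from 9 to 12 and members lower from 0 to 6 when 1 library was left out. Members lower numbered 1 with DESeq2 and 1 without EPZ011989 replicates 2 and 4. Deviations from the group means correlated at 0.052, -0.25, -0.26 and 0.108 between libraries with the same replicate number, for numbers 1 to 4. A shift confined to 1 library enters these values, so they cannot tell whether the numbers mark shared cultures. With the replicate block, over replicates 1 to 4, 1525 genes were higher and 527 lower, and 7 members were higher, losing Adcy2, Adcy3, Adcy5, Pde7a and Pde7b, in a fit with fewer libraries. Changes of sign were seen only in members not called in the fit reported, and the cause was not tested. Log2 fold changes were 0.0345 with upper-quartile factors and 0.0366 with library size alone for Akap11, 0.0040 with upper-quartile factors for Prkaca, and -0.0196 with limma-voom for Pde10a. With the replicate block they were -0.0392 for Adcy9, -0.0020 for Akap13, -0.10 for Pde10a and -0.0307 for Akap9. Without EPZ011989 replicates 2 and 4 they were -0.0080 for Adcy9, -0.15 for Pde10a, 0.0067 for Prkaca and -0.0495 for Akap9. Leaving out 1 library gave -0.32 to 0.11 for Akap11, -0.23 to 0.40 for Adcy9, -0.0086 to 0.16 for Akap13, -0.10 to 0.28 for Pde4d, -0.23 to 0.11 for Pde10a, -0.66 to 0.0924 for Pde3a, -0.16 to 0.0661 for Prkaca, -0.14 to 0.18 for Akap9 and -0.0780 to 0.19 for Pde6d. Without replicates 2 and 4 together the paralog ratios kept their direction, but 5 against 2 libraries allow no exact p under 0.0952. Members near the floor rest on a few fragments.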
